A study of Rattus norvegicus with 10 samples.

Results

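The antimicrobial and neutrophil granule genes of milk were followed in rat whey, the clear fluid left when fat, cells and casein are spun out of milk. They were taken by gene name from the array annotation and were chosen by a late rise of Wfdc2 that these arrays had already shown, so the changes of Wfdc2 between days are given as a description with no test. The 10 genes are Wfdc2, Slpi, Lcn2, Ltf, Lpo, Camp, S100a8, S100a9, Mpo and Defb1, out of 35469 gene names on the array, and they are read by 14 probes out of 41012. Whey came from 3 untreated F344/N dams, an inbred strain, each milked under oxytocin on d 2, d 9 and d 16 postpartum, with 1 array per dam and day, so that the same rats 1 to 3 make up each of the 3 groups. Serum was drawn from the same dams on d 21, at weaning, and the RNA of all 3 was combined on a single array, so it has no replicate and enters no test. Whey and serum had been filtered to take out the remains of cells, and 100 ng of RNA went onto each array.

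Milk carries proteins that slow or kill microbes, and they come from 2 kinds of cell. Epithelia make protease inhibitors and iron-binding or peroxidase proteins that are secreted with the fluid. Neutrophils, the white cells that enter milk when the gland is inflamed, bring their own store: calprotectin in the cytosol and peroxidase, cathelicidin and lactoferrin in granules. Some of the genes, Slpi, Lcn2 and the S100a8 and S100a9 pair among them, are used by epithelia and by myeloid cells alike, so a transcript in a cell-free fluid does not name its source.

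The probes are 60-base oligonucleotides, and their positions are those of the array's annotation in rat build rn4. Those the results turn on are printed 5′ to 3′ in the sense of the transcript, to show which stretch of each message was read. Of the Wfdc2 probe (chromosome 3, 155587997 to 155588056) 30 bases are given, with the polyadenylation signal in capitals, because this probe reads the very end of the message. Of the Slpi probe on chromosome 3, 155374636 to 155374695, the 4 cysteine codons of 1 of its 2 open frames are in capitals. The S100a8 and S100a9 probes lie on chromosome 2, at 182962328 to 182962387 and at 182987647 to 182987706, and the Mpo probe on chromosome 10, at 76094059 to 76094118.
Wfdc2: ctttttctaaccAATAAAgcgatcactttc
Slpi: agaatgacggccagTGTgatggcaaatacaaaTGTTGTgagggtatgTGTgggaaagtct
S100a8: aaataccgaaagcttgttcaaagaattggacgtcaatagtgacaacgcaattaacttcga
S100a9: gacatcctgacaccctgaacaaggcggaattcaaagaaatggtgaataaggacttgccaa
Mpo: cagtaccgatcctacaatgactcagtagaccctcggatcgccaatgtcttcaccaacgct

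Levels are log2 of the quantile-normalized processed signal, and a probe counts as measured on an array where the scanner software called it well above background. Over the 9 whey arrays 10713 to 18021 probes passed that call, and 6186 did in serum. The 75th percentile of the signal before normalization ran from 12.5 to 83.2 in whey and was 4.11 in serum, and the array of rat 1 had the lowest value of the 3 rats on each of the 3 days (12.5, 21.2 and 21.5). The arrays lay on 3 slides: d 16 whey and serum shared a slide that was scanned on a later day than the rest, so that d 16 cannot be told apart from slide and scan day, while d 2 and d 9 shared 1 slide in part. Of the 14 probes, 8 (of 7 genes) passed the low-signal filter (well above background with a signal over 20 on at least 1 whey array) and were tested with 16849 probes in all. Markers of secretory mammary epithelium were well above background for 10 of 10 probes on each whey array, with summed linear levels of 797889 to 1174096, against 6545 in serum. Erythroid and platelet markers, in contrast, summed to 12 to 57.6 in whey and to 46778 and 75722 in serum.

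Wfdc2, a secreted whey acidic protein-type protease inhibitor of epithelia, dipped at d 9 and was highest at d 16 in each rat. Its log2 level was 6.37, 6.01 and 5.76 in rats 1, 2 and 3 on d 2, 4.73, 4.89 and 4.36 on d 9, and 7.23, 7.56 and 7.03 on d 16. The 3 days did not overlap, and the 3 rats of a day lay within 0.61 of each other. Means were 6.05 ± 0.31, 4.66 ± 0.27 and 7.27 ± 0.27 (SD, n = 3), so that the level was 2.62-fold lower on d 9 than on d 2, and on d 16 it was 6.12-fold higher than on d 9 and 2.34-fold higher than on d 2. Before any scaling the d 16 signals, 137 to 339 units, already lay above those of both earlier days, 23.5 to 70.0 units. Each array took the same 100 ng of RNA, so Wfdc2 levels are relative to the RNA loaded and are not amounts per volume of whey. The paper reports that RNA was more concentrated in whey of colostrum, the early milk, than in that of mature milk. Whether whey held more Wfdc2 RNA per volume on d 16 was not tested. The number of cells that released this RNA and the release per cell were not measured either. In serum Wfdc2 was at 2.41 and not well above background, which put whey at least 7.46-fold higher.

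The dip at d 9 depended on the scaling, whereas the high level at d 16 did not. Scaled to the 75th percentile, the d 9 minus d 2 difference was -1.39 and the d 16 minus d 9 difference 2.67 on the log2 scale. Scaled to the spike-in control probes, which moved the median of all tested probes by 1.58 from d 2 to d 9 and by -0.93 from d 9 to d 16, d 9 was 0.08 above d 2 and d 16 was 1.84 above d 9. In that scaling d 16 ran from 6.96 to 8.22 and d 9 from 4.93 to 6.46, so these days still did not overlap, but d 9 overlapped d 2 (5.42 to 5.90). Within the slide that d 2 and d 9 shared, the d 9 minus d 2 difference was -1.10. That slide held only the d 2 array of rat 3 beside the 3 d 9 arrays, so the rats were not paired there.

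**Figure D1:**
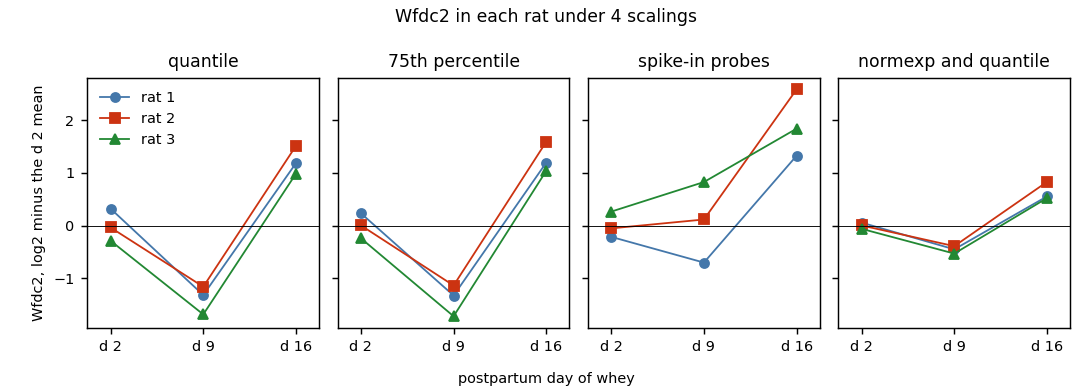
Log2 level of Wfdc2 on each whey array minus the mean of the 3 d 2 arrays, by postpartum day, with 1 line per rat and 1 panel per scaling. The 3 rats ended highest on d 16 in the 4 panels, whereas the dip on d 9 is missing for the mean of the 3 rats in the panel scaled to spike-in probes, where d 9 was 0.08 above d 2.

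Lcn2 encodes lipocalin 2, which withholds iron from bacteria by binding their siderophores, and in quantile-normalized data it was, like Wfdc2, lowest on d 9 and highest on d 16 in each rat. Levels were 6.57, 6.73 and 6.67 in rats 1, 2 and 3 on d 2, 6.29, 6.48 and 5.70 on d 9, and 7.37, 8.49 and 7.27 on d 16. The days did not overlap and d 16 was the highest in each rat, with rat 2 standing 1.21 above rat 3, the lowest, on that day. From d 9 to d 16 the difference was 1.55 (SE 0.34, limma adjusted p 0.0768) and from d 2 to d 16 it was 1.05 (SE 0.34, limma adjusted p 0.0529), so neither passed the threshold of 0.05. With the rat as a block the second of these passed it (limma adjusted p 0.0329) and the first did not (0.0725), while both passed it with normexp (0.0363 and 0.0480) and with the test kept to probes well above background on the 9 whey arrays (0.0272 and 0.0321). The d 9 minus d 2 difference was -0.50 (SE 0.34, limma adjusted p 0.333). Scaled to the spike-in probes Lcn2 ran from 5.62 to 6.82 on d 2, 6.52 to 7.94 on d 9 and 7.09 to 9.14 on d 16. There d 9 overlapped both other days, while d 2 and d 16 did not overlap. In that scaling d 9 lay 1.05 above d 2, and d 16 lay 0.68 above d 9. Serum was at 2.73 and not well above background, and whey was at least 13.4-fold higher.

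Lpo, lactoperoxidase, the secreted enzyme that turns thiocyanate and peroxide into an antibacterial oxidant, stayed within a narrow band in quantile-normalized data. Its lowest level was 4.89 (d 2, rat 2) and its highest 5.49 (d 9, rat 1), and the day means were 5.00 ± 0.14, 5.28 ± 0.24 and 5.17 ± 0.11 (SD, n = 3). The 3 differences between days ran from -0.11 to 0.28, each with a SE of 0.15, and their limma adjusted p ran from 0.238 to 0.726. Scaled to the spike-in probes it ran from 4.25 to 7.19 and was called from d 2 to d 9, at 1.79 (limma adjusted p 0.0329), where the median of all tested probes moved by 1.58. It was well above background on the 9 whey arrays and not on the serum array, at 2.59, with whey at least 4.17-fold higher, and 2.94-fold higher when scaled to the 75th percentile. Wfdc2, Lcn2 and Lpo were thus the members read on every whey array and not in serum.

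**Figure D2:**
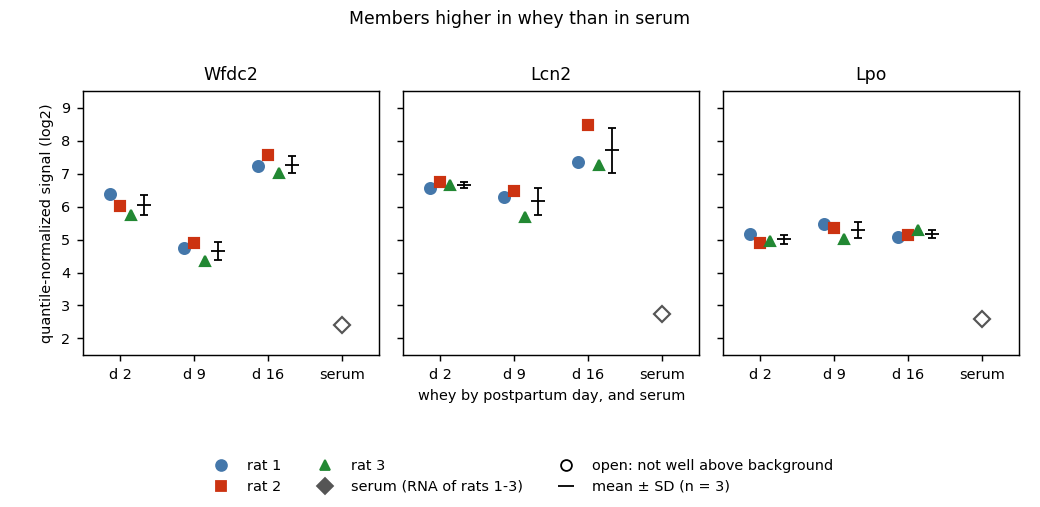
Quantile-normalized log2 signal of Wfdc2, Lcn2 and Lpo on each array, by day of whey and in serum; each symbol is 1 array, coloured by rat, open where not well above background, with the mean ± SD of the 3 rats beside it. Wfdc2 and Lcn2 reached 7.03 or more on each d 16 array, Lpo stayed between 4.89 and 5.49, and the 3 serum values lay at 2.41 to 2.73.

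S100a8 and S100a9, which pair to form calprotectin, a metal-chelating protein that fills the neutrophil cytosol, spread more widely among the rats on d 9 and on d 16 than their day means lay apart. S100a9 was at 2.95, 2.72 and 1.54 in rats 1, 2 and 3 on d 2, with none of these well above background. On d 9 it was at 1.74, 6.55 and 4.91 and on d 16 at 3.00, 7.92 and 4.98, and the probe was well above background in rats 2 and 3 and not in rat 1 on both days. S100a8 was at 4.01, 4.75 and 4.39 on d 2, at 2.30, 6.43 and 4.60 on d 9 and at 4.36, 7.21 and 5.28 on d 16. Rat 2 was the highest and rat 1 the lowest of the 3 on d 9 and d 16 for both genes, 4.80 and 4.93 apart for S100a9 and 4.13 and 2.84 apart for S100a8. No change of S100a8 or S100a9 between days passed the test. The largest, S100a9 from d 2 to d 16, was 2.90 (SE 1.47, limma adjusted p 0.178), and it was 1.74 without rat 2. Within each rat d 16 was above d 2 and above d 9 for both genes. In rat 1, however, S100a9 was not well above background on any day and S100a8 was not on d 2 or d 9. With the rat as a block the SE from d 2 to d 16 was 1.08 for S100a9 (limma adjusted p 0.0948) and 0.61 for S100a8 (limma adjusted p 0.176). In serum they stood at 11.46 and 12.69.

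Slpi, a secreted inhibitor of neutrophil elastase that is itself antimicrobial, is read by a pair of probes that did not behave alike. The first (chromosome 3, 155373892 to 155373953) was at 0.81, 2.21 and 1.82 in rats 1, 2 and 3 on d 2, not well above background in any. It was at 3.64, 3.15 and 4.43 on d 9, well above background in all 3 rats, and at 3.1, 6.30 and 3.86 on d 16, in rats 2 and 3. From d 2 to d 16 it rose by 2.81 (SE 0.80, limma adjusted p 0.0351), at least 3.92-fold. The probe passed the low-signal filter only through d 9 of rat 3 and d 16 of rats 2 and 3, so the filter favoured a rise from d 2. It was higher on d 16 in 3 of 3 rats, but in rat 1 neither day was well above background. The adjusted p went to between 0.0512 and 0.0926 when any 1 of 6 whey arrays was left out (d 2 of each rat, d 9 of rat 1, d 16 of rats 2 and 3), to 0.0869 without the 3 arrays of rat 2, to 0.0967 with normexp background correction and to 0.0862 without the filter. The other probe, whose sequence is shown above, was at 4.78, 1.19 and 1.19 on d 2, at 1.21, 1.78 and 3.20 on d 9 and at 1.17, 4.63 and 2.77 on d 16. It was well above background on 1 array of each day, that of a different rat each time, and its change from d 2 to d 16 was 0.47 (SE 1.19, limma adjusted p 0.801).

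The granule genes were near or below background in most whey samples. Camp, the cathelicidin of specific granules, was well above background in whey only in rat 2 on d 16, at 3.77, where the other 8 whey arrays gave 0.88 to 1.95. Mpo, the peroxidase of azurophil granules, ran the other way. Its level was 4.73, 4.05 and 3.97 in rats 1, 2 and 3 on d 2, well above background in all 3, at 2.57, 1.21 and 2.44 on d 9, in rat 3 alone, and at 1.85, 1.25 and 1.10 on d 16, in none. The d 16 level was at least 5.90-fold below that of d 2, and d 2 overlapped neither later day, whereas with spike-in scaling d 9 overlapped d 2. Signals of 13.7 to 18.1 units on d 2 were under the minimum of 20, so Mpo was not among the probes tested. Without that filter, over all 41012 probes, the changes were -2.18 from d 2 to d 9 (limma adjusted p 0.0284) and -2.85 from d 2 to d 16 (limma adjusted p 0.00744). Ltf, lactoferrin, the iron-binding protein of milk and of granules, was at 0.90 to 1.78 in whey and 0.94 in serum. Defb1, an epithelial beta-defensin, was at 1.03 to 1.15 in whey and 1.19 in serum. Neither was well above background on any of the 10 arrays.

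A further 3 probes carry the names of members in the annotation but were designed from other sequence records, and their orientation in rn4 is the reverse of the S100a8 and Camp probes above. The first, at S100a8 (chromosome 2, 182961489 to 182962022, longer than the probe itself), is printed because it was well above background in serum, at 6.65, and in d 16 whey of rat 2, at 3.06, the sample in which the S100a8 probe was highest in whey.
S100a8, opposite orientation: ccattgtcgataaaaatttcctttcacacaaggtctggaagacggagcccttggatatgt
On the other 8 whey arrays it lay between 0.94 and 1.74. The second S100a8 probe of this kind and that of Camp were not well above background on any array, with 0.88 to 1.97 and 0.97 to 1.51 in whey and 5.72 and 1.17 in serum.

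**Figure D3:**
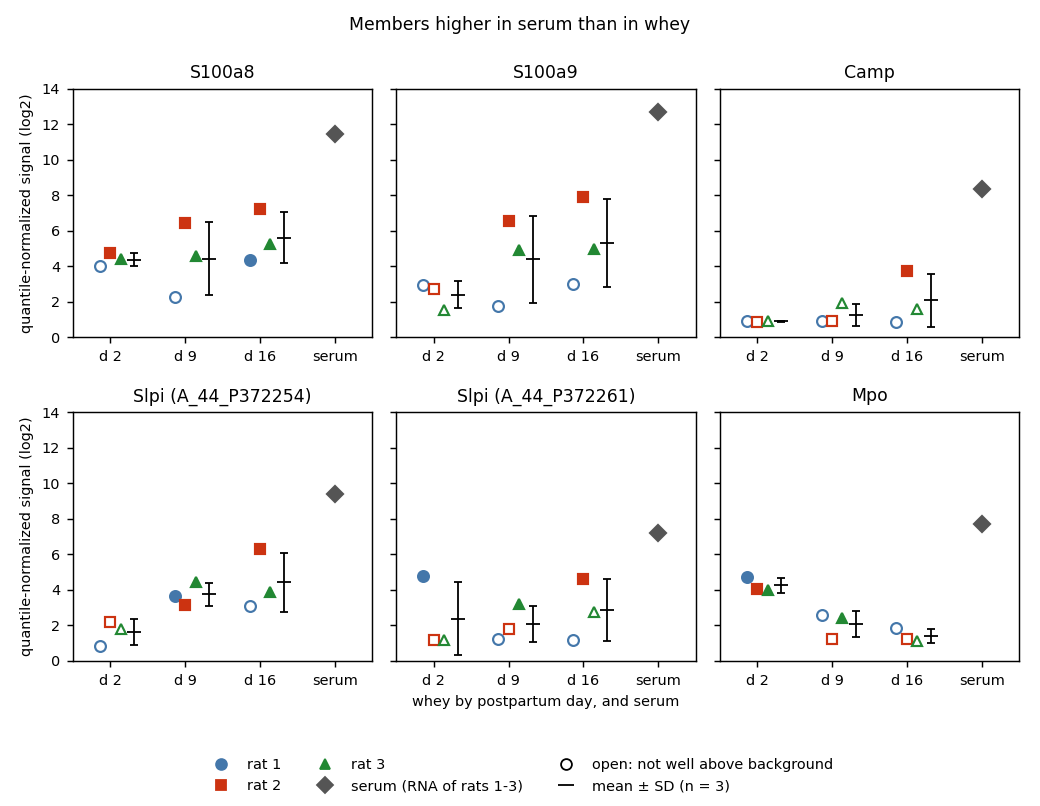
Quantile-normalized log2 signal of S100a8, S100a9, Camp, the 2 Slpi probes and Mpo on each array, by day of whey and in serum; each symbol is 1 array, coloured by rat, open where not well above background, with the mean ± SD of the 3 rats beside it. Serum, at 7.20 to 12.69, lay above each whey array in the 6 panels, and rat 2 on d 16 was the highest whey sample for S100a8, S100a9, Camp and the first Slpi probe.

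Over the members, few changes between days passed the test. Leaving out Wfdc2, 0 of 7 tested probes were called from d 2 to d 9 (17.6% of all tested probes), 1 of 7 from d 2 to d 16 (28.5%), the first Slpi probe, and 0 of 7 from d 9 to d 16 (1.42%). With unadjusted p under 0.05 the counts were 1, 2 and 1. The background counts of 2969, 4801 and 239 probes ran from 1274 to 2703, from 2740 to 4962 and from 23 to 260 with 1 array left out. The median change of the 7 probes was 0.28, 1.19 and 0.83 in the same order, against 0.11, 0.04 and -0.06 over all tested probes. The medians of 1.19 and 0.83 are the changes of Camp itself. Camp passed the filter only through d 16 of rat 2, the whey array where it was highest, so these medians are not read as a shift of the members. The first Slpi probe and S100a9 passed it only through arrays of d 9 and d 16, which favours a rise from d 2. The same holds for Cd68, Lyz2, Ncf1, Cyba and Il1b, which are read below. With the rat as a block, 2 of 7 were called from d 2 to d 16, the first Slpi probe and Lcn2.

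**Figure D4:**
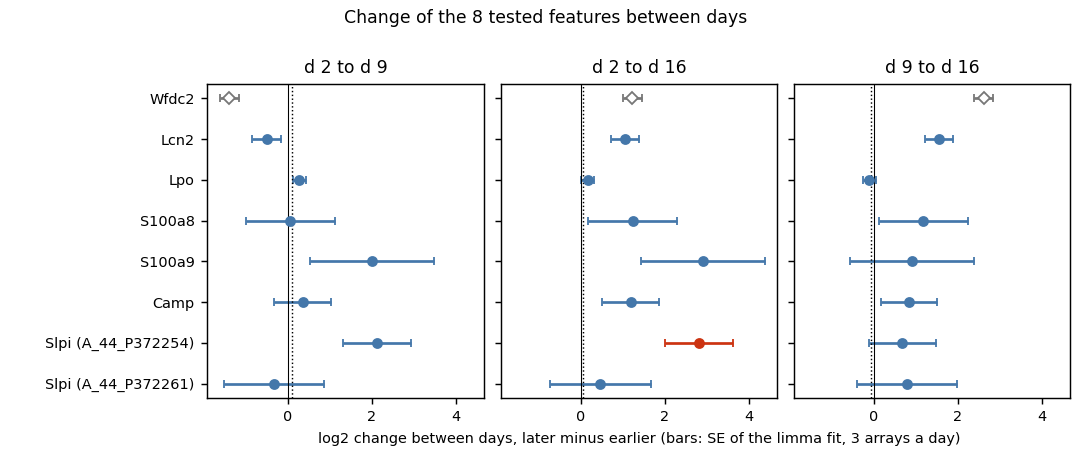
Log2 change of each tested member probe between days, later minus earlier, with the SE of the limma fit (3 arrays a day); Wfdc2 is an open grey diamond because its change chose the genes, red marks a limma adjusted p under 0.05 and blue the others, and the dotted line is the median of all 16849 tested probes. The first Slpi probe from d 2 to d 16, at 2.81, is the red point, and the bars of S100a9 (SE 1.47) are the widest.

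The width of those bars follows the spread of the 3 arrays within a day. With 1 array per rat and day, a difference between rats on a day cannot be told apart from one between arrays. A day was taken to disagree for a probe when its 3 arrays spanned more than 1 on the log2 scale. This held for 3 of the 8 tested member probes on d 2 (24.2% of all tested probes), for 5 on d 9 (17%) and for 6 on d 16 (12.7%). These counts include spans between values below background. S100a9 and the first Slpi probe on d 2, and Camp on d 9, were well above background on no array of that day. On d 16 rat 2 was the highest rat for 7 of the 8 probes, the exception being Lpo, against 35.2% of all tested probes. Among the tested probes that disagreed on d 16 that share was 42.5%. Both Slpi probes are among the 7, and so is Camp. Camp was tested only through d 16 of rat 2, so the filter itself favoured its place there and its disagreement on that day. Rat 1 was the lowest for 6 of the 8 on that day, and its array was also the dimmest of each day; the part of array brightness in this was not tested. Rat 2 had a 75th percentile of 41.8 on d 9 and 40.6 on d 16, and on d 9 that of rat 3 was higher, at 83.2. A test for a difference between rats with the day in the model called 0 of the 8 members (0% of all tested probes). S100a8 had the lowest unadjusted p, 0.0167 (limma F test, adjusted p 0.431), and 1775 of the 16849 probes had an unadjusted p under 0.05.

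Against serum the members fell on both sides in quantile-normalized data. Of the 14 probes 10 passed the background call in serum or in any whey sample. Of these 3 were more than 4-fold higher in the mean of the 9 whey arrays (27.2% of all 21177 probes so considered), namely Wfdc2, Lcn2 and Lpo, and 7 were more than 4-fold higher in serum (15.7%). In serum S100a9 was at least 388-fold, S100a8 100.3-fold, Camp at least 75.9-fold, the Slpi probes at least 56.8-fold and 23.6-fold and Mpo at least 32.8-fold higher, with 4, 7, 1, 5, 3 and 4 of the 9 whey arrays well above background. The remaining one was the S100a8 probe of opposite orientation shown above, at least 24.6-fold higher in serum and well above background on 1 whey array.

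These gaps moved with the scaling, and the serum array had the lowest signal of the 10. Scaled to the spike-in probes, whey minus serum was -5.27 for S100a9, -3.20 for S100a8, -3.32 for Camp, -2.41 and -1.35 for the Slpi probes and -1.85 for Mpo, so that the second Slpi probe and Mpo were under 4-fold and the counts were 3 and 5. S100a9 in rat 2 on d 16 was then at 8.59 against 9.58 in serum, whereas it was at 7.92 against 12.69 in quantile-normalized data. Both Slpi probes in that sample, at 6.97 and 5.19, then lay above serum, at 6.02 and 3.99. The counts were 2 and 7 with the 75th percentile, where Lpo was under 4-fold, and 0 and 4 with normexp background correction.

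Cell markers were read beside these members. Neutrophil surface markers were well above background for 0 or 1 of 7 probes on each whey array, with summed linear levels of 14.3 to 22.8, and for 0 of 7 in serum, at 52.9; the defining markers Csf3r and Il8rb were so on no array. The 1 of them that was tested, Fpr1, was not called. Macrophage markers summed to 101 to 149 on d 2, 199 to 469 on d 9 and 663 to 825 on d 16, sums to which Aif1 gave the most of the 11 probes on each array. The defining markers Csf1r, Cd163 and Msr1 were well above background on no whey array and Mrc1 was on 1. Of 3 tested macrophage probes 2 rose from d 2 to d 16: Aif1 by 3.1 (SE 0.31, limma adjusted p 0.000726) and Cd68 by at least 5.00-fold (limma adjusted p 0.00112), from a d 2 level not well above background, while Emr1 was not called. On d 16 Cd68 was at 5.52, 5.43 and 5.43 in rats 1, 2 and 3 and Aif1 at 9.55, 9.21 and 9.34, with rat 2 not the highest for either. Lymphocyte markers summed to 28.4 to 44.7 on d 2 and 80.6 to 116 on d 16, where 1 of 2 tested probes, Cd3d, rose by 1.84 (SE 0.27, limma adjusted p 0.00283). The marker genes were named after their values were seen. Of the markers listed for skin keratinocytes, Krt1, Krt5 and Krt14 were well above background on each whey array and none was called. Krt10, Ivl and Krtdap, of the same list, were well above background on no whey array. The part of any of these in the members' levels was not tested.

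Other antimicrobial genes, not all of them particular to epithelia, were read from a list of 30, of which 20 were on the array and 7 were tested. From d 2 to d 9, 2 rose and 1 fell, and from d 2 to d 16, 3 rose and 0 fell, with a median change of 1.44. That median is the change of Pglyrp1, which was not called (limma adjusted p 0.227) and was at least 1.31-fold. Its probe was tested only through d 16 of rat 2, the 1 whey array where it was well above background. Over all 16849 tested probes 1897 rose and 1072 fell from d 2 to d 9 (17.6% called), and 2704 rose and 2097 fell from d 2 to d 16 (28.5% called), which is the background of this and the next lists. Wfdc3, a relative of Wfdc2, was at 12.02, 12.01 and 12.36 in rats 1, 2 and 3 on d 2, at 14.25, 13.99 and 14.08 on d 9 and at 14.41, 14.39 and 14.79 on d 16. From d 2 to d 9 it rose by 1.98 (SE 0.17, limma adjusted p 0.00103), where Wfdc2 was lower, and in serum it was at 1.03, not well above background. Lgals3, galectin 3, a sugar-binding lectin of epithelia and macrophages, rose by 2.20 from d 2 to d 16 (SE 0.33, limma adjusted p 0.00338). Lyz2, lysozyme, which cuts bacterial cell walls, and Sftpd, a collectin that coats microbes, were named after their values were seen. Lyz2 rose from d 2 to d 16 by at least 10.2-fold (limma adjusted p 0.000821), from a d 2 level that was not well above background. In serum Lyz2 was at 10.29, well above background. Sftpd fell by 1.30 from d 2 to d 9 (SE 0.25, limma adjusted p 0.0140).

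Among genes that make or consume peroxide for the peroxidases, 5 of 11 on the array were tested, by 6 probes. None rose, 2 fell from d 2 to d 9 (Cat and Duoxa1) and 1 from d 2 to d 16. That was Cat, catalase, which destroys peroxide: it was at 6.77, 7.54 and 7.52 in rats 1, 2 and 3 on d 2 and at 5.07, 3.46 and 3.62 on d 16, and fell by 3.22 (SE 0.51, limma adjusted p 0.00405).

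Of 24 further neutrophil granule and oxidase genes, 23 were on the array and 9 were tested; the probes of elastase, proteinase 3 and cathepsin G were not well above background on any whey array. Between d 2 and d 16, 5 rose and 1 fell. Of those read on the 6 arrays, Np4, a rat neutrophil defensin, rose by 1.03 (SE 0.19, limma adjusted p 0.00772) and Arg1, arginase, by 0.83 (SE 0.24, limma adjusted p 0.0341). The other 3 were the NADPH oxidase subunits Ncf1, Ncf4 and Cyba, which macrophages share, by at least 5.41-fold for Ncf1 and 5.04-fold for Cyba, not well above background on d 2, and by 2.78 on the log2 scale for Ncf4, and Cd177 fell by 1.56 (SE 0.44, limma adjusted p 0.0340); these 4 were named after their values were seen.

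Of 19 inducers and regulators of antimicrobial genes 10 were tested, by 13 probes. Between d 2 and d 16, 2 probes rose, both of Il1b, and 2 fell, both of Cd14, the coreceptor for bacterial lipopolysaccharide. The brighter Cd14 probe was at 7.76, 8.13 and 8.44 on d 2 and at 5.63, 6.82 and 6.25 on d 16, a fall by 1.88 (SE 0.38, limma adjusted p 0.00951). Il1b, interleukin 1 beta, which induces Lcn2 and other defence genes in epithelia, was not well above background on d 2 and reached 4.21, 8.50 and 5.69 in rats 1, 2 and 3 on d 16 by its first probe, with rat 2 again the highest. It rose from d 2 to d 16 by at least 16.0-fold (limma adjusted p 0.0101), and it was named after its values were seen.

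The genes whose course over the 9 whey arrays was most like that of Wfdc2 were found by the root mean square difference of centred log2 levels. The search covered 5151 genes that were well above background on the 9 whey arrays. They were Apob48r (0.519), Anxa1 (0.530), Nes (0.535), Tbc1d10c (0.545) and Bik (0.589). Anxa1, annexin A1, a phospholipid-binding protein of inflammation, was at 8.90, 9.78 and 9.31 on d 2, 7.85, 7.98 and 8.70 on d 9 and 9.85, 11.04 and 10.42 on d 16. Bik was as high on d 2 (6.46 to 6.74) as on d 16 (6.52 to 6.99), unlike Wfdc2. A search for S100a9 by the same measure was added after its values were seen. It had a looser filter, 7663 genes that passed the low-signal filter on at least 1 whey array. That filter can admit genes through the few arrays where S100a9 was itself high, so the list is a description only. The genes were, in order, Ccl2 (0.943), Cxcl3 (1.01), Ccrl2 (1.01), Ccl4 (1.04), Cd44 (1.16), Icam1 (1.16), Csf1 (1.23) and Cxcl1 (1.24). These were well above background on 3 or 4 of the whey arrays, apart from Cxcl1, a chemokine that draws neutrophils, on 8. Cxcl1 was at 10.38 in rat 2 on d 9 and 9.47 in rat 2 on d 16, where the other 7 whey arrays gave 3.69 to 6.02, and it was not well above background in serum, at 2.56. By quantitative PCR in equal volumes, the paper reports similar Cxcl1 levels in whey and serum and no change over lactation. The arrays took equal RNA instead, so these readings are not like for like.

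Promoters are given for Wfdc2 and Lcn2, the members that were well above background on the 9 whey arrays and highest on d 16 in each rat in quantile-normalized data. They are the 250 bases before the transcript start in RefSeq, build GRCr8, for Wfdc2 chr3:173706225-173706474 on the plus strand and for Lcn2 chr3:36081781-36082030 on the minus strand. An entry was found for 7 of the 10 members. Capitals mark matches on either strand to TATAAA, TTGCNNAA, TTCNNNGAA or GGGNNNNNCC, which may overlap. They stand for the TATA box and, loosely, for letters that C/EBP, STAT and NF-kappa B proteins bind. GGGNNNNNCC leaves its middle letters free, so a match to it need not be an NF-kappa B site.
Wfdc2: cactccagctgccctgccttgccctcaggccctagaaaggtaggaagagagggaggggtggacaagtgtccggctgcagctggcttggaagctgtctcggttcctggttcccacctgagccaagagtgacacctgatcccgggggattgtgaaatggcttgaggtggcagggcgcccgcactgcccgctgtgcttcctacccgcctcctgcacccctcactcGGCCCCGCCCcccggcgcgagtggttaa
Lcn2: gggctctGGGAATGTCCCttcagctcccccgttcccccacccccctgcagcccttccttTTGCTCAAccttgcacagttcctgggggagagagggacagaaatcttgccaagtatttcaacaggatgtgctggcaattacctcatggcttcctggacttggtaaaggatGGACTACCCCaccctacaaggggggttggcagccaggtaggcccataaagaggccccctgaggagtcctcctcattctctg
Lcn2 held 1 match to TTGCNNAA, 191 to 184 bases before the start, which 9.22% of 33469 rat promoters of that length hold, and 3 to GGGNNNNNCC, 2 of which overlap, a pattern in 42.3% of them. Wfdc2 held 1 match, to GGGNNNNNCC on the minus strand, 28 to 19 bases before the start. Neither held TATAAA (12.9% of promoters) or TTCNNNGAA (7.67%). These are matches of letters and no binding was measured.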

How the data were processed

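Whey mRNA of 3 rats on 3 days (9 arrays) and 1 serum array of their mixed RNA were measured on 1-colour Agilent arrays. The authors scanned them and deposited Agilent Feature Extraction (version 9.5.3.1) files, from which the processed signal intensity (background-subtracted, linear), the mean and background intensity and the well above background and outlier flags (other, 0 or 1) were used. A deposited table of normalized values was not used, since its 10 columns match no label. Its unit is not given in the sources used here. Log2 intensities were quantile normalized over the 10 arrays in R 4.3.3, as in the study's methods, outlier spots left out and spots of a probe averaged. Days were compared with limma 3.58.1 (lmFit, eBayes) on 9 whey arrays with Benjamini-Hochberg adjustment over 16849 probes and a threshold of 0.05. A fold against values below background was set against the lowest signal well above background on each array and written "at least". The fit was tested on simulated data. Numbers 1 to 3 are the same rats on each day per the labels; deviations of arrays of the same rat correlated with r of -0.018 to 0.218 (9 pairs), those of different rats with -0.254 to 0.158 (18 pairs). p-values cover 3 rats only. Members and gene lists were chosen with earlier results of these data known. Named were all member probes, the 2 largest called rises and falls of each list from d 2 to d 16 among probes well above background on the 6 arrays, and the 5 genes most like Wfdc2. Of 20503 RefSeq accessions on the array 16815 matched the current table. Alternatives were scaling to the 75th percentile or 9 spike-in probes, quantile normalization of whey alone, normexp (offset 50), no filter, a signal minimum of 100, probes well above background on the 9 whey arrays, rat or slide as a block, and leaving out arrays; leaving out rat 2 was chosen after seeing the data.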

Additional observations from a re-analysis of the deposited data

How the results depend on the processing

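The high d 16 level of Wfdc2 kept its direction under the alternatives run, standing 2.47 to 2.74 above d 9 and 1.08 to 1.39 above d 2 when 1 array was left out; with normexp its 3 changes (d 9 over d 2, then d 16 over d 2 and over d 9) shrank to -0.46, 0.64 and 1.09, and with spike-in scaling they were 0.080, 1.92 and 1.84, the first reversed. Spike-in scaling gave every member the same SE (0.71), so its calls carry no spread of their own: 3 members at d 9 and 2 at d 16, both against d 2, and 3 between rats (3813 of all probes, against 0). Calls of all probes went from 2969, 4801 and 239 to 8367, 840 and 159 with it, to 855 from d 9 to d 16 with normexp and to 618 with a minimum of 100, and from d 2 to d 9 to 498 with slide as a block and 107 within 1 slide. With the rat as a replicate block, paired by the labels, 2 members were called from d 2 to d 16, 117 probes of all from d 9 to d 16, and no other member call changed. For d 9 against d 2, 1 member was called without the filter (Mpo) and 0 to 1 with 1 array left out (1 without d 16 of rat 2). For d 16 against d 2, 2 were called with a minimum of 100, 0 to 2 with 1 array left out and 0 without rat 2, chosen after seeing the data. For d 16 against d 9, 1 (Lcn2) was called with normexp, with a minimum of 100 and with probes well above background throughout. Against serum, normexp left 0 members higher in whey and 4 in serum.

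Reversals among uncalled changes were these; the cause was not tested. With spike-in scaling Lcn2 changed by 1.05 and the second Slpi probe by 0.94 from d 2 to d 9, and the first Slpi probe by -0.051 from d 9 to d 16. The second Slpi probe changed by 0.87 from d 2 to d 9 with slide as a block and within the shared slide. Camp changed by -0.37 with the 75th percentile and -0.059 with normexp from d 2 to d 9. Without rat 2, S100a8 changed by -0.75 at d 9 against d 2, the first Slpi probe by -0.56 at d 16 against d 9, and the second by -1.02 and -0.24 at d 16 against d 2 and d 9. With 1 array left out, the second Slpi probe ranged from -0.92 to 0.87, -0.42 to 1.66 and -0.10 to 1.63 over the 3 comparisons in order, S100a8 from -0.93 to 1.13 at d 9 against d 2, and at d 16 against d 9 the first Slpi probe from -0.26 to 1.34 and S100a9 from -0.43 to 2.05. With 3 arrays a day, and most granule probes near background, a change that missed the threshold is not shown to be absent.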
